A study of Mus musculus with 9 samples.

Results

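The regions described here carried a Sox2 peak in wildtype lung epithelial cells and again in Nkx2-1 deleted cells that also carry ectopic Sox2, but no listed peak in cells with ectopic Sox2 alone. They were chosen by their presence in the deposited peak lists, as wildtype summits whose region overlapped a region of the Nkx2-1 deleted list by at least 1 bp and no region of the ectopic Sox2 list. This left 210 of the 552 wildtype summits (38.0%, exact binomial interval 34.0 to 42.2%), in 208 regions, out of 3370 summits in the 3 lists together. They are called shared regions below. The remaining wildtype summits were 241 found in wildtype alone, 63 found in all 3 lists and 38 shared with ectopic Sox2 alone. Of all wildtype summits, 49.5% overlapped an Nkx2-1 deleted region and 18.3% an ectopic Sox2 region. The shared regions were thus selected on peak calls in the same 3 libraries, so fragment numbers and enrichments in the lists describe them and test nothing.

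Sox2 occupancy was measured by chromatin immunoprecipitation and sequencing in C57BL/6 mouse cells of 8 weeks, with 1 Sox2 library each for wildtype cells, cells with ectopic Sox2 expression, and cells with ectopic Sox2 expression and Nkx2-1 deletion. The condition that lacks Nkx2-1 thus also carries the ectopic Sox2. How Sox2 was expressed, how Nkx2-1 was deleted and from how many animals the cells came was not stated in the labels. A peak list holds no expression value, so neither the cell type nor the change in either gene could be checked. With no replicates, nothing below has a test between conditions. Intervals are 95% and cover counting error only. Depth, as the mean number of ChIP fragments covering a position, was 0.963 for the wildtype library, 1.45 for the Nkx2-1 deleted library and 0.764 for the ectopic Sox2 library.

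Sox2 is a high-mobility-group transcription factor that binds DNA in the minor groove, often with a partner factor. In the developing foregut it marks the oesophagus and the proximal airway, and in the adult lung it is kept in airway cells and is low in alveoli. Nkx2-1 is the homeodomain factor that opposes it, setting the lung and alveolar programmes and activating the surfactant genes.

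The stretches of sequence on hand were RefSeq promoter windows of the build GRCm38.p6, the same build as mm10, and 3 shared regions reached into such a window. The window table held 146 of the 197 genes nearest to a shared region. Each window was searched over the 250 bases before the transcription start, on both strands, for the Sox cores ACAATG and ACAAAG and the Nkx2 cores CAAGTG and TTAAGTG. Over all 32817 windows these occurred in 10.7%, 16.5%, 11.6% and 2.1%, respectively. The part of the Dph1 window inside the shared region, at chr11:75190484-75190676 on the minus strand, is shown because it is the shared region closest to a start listed there. The Gm31674 stretch, at chr11:18747830-18748008 on the plus strand, is shown because it alone held a match, which is in capitals.
Dph1: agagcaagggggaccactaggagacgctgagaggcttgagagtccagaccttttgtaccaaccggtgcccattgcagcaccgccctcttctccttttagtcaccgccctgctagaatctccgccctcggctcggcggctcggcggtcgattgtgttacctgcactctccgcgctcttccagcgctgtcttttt
Gm31674: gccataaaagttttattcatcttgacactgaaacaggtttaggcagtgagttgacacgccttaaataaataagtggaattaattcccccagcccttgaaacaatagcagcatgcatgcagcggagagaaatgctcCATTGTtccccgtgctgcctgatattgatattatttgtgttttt
The Gm31674 match reads CATTGT on the printed strand, which is ACAATG on the other. The Dph1 stretch of 193 bases had 59.6% G and C and 14 CpG, and the Gm31674 stretch of 179 bases had 40.2% and 3. A match is a description of letters and not of a bound site. The window of Mrps10 shared 34 bases with its region and held no match.

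At Dph1, which encodes an enzyme of diphthamide synthesis, the summit lay 45 bp before the start with 42 fragments in wildtype (30.3 to 56.8) and 52 with Nkx2-1 deletion (38.8 to 68.2). Divided by depth, this made 0.821 times as much with Nkx2-1 deletion as in wildtype (0.536 to 1.26), an interval that includes 1. At Mrps10, a mitochondrial ribosomal protein gene, 38 and 70 fragments gave a ratio of 1.22 (0.812 to 1.87). The Gm31674 region, 133 kb from the homeobox gene Meis1, had 11 and 19 fragments and stood near the bottom of both lists by q. The 2 protein-coding promoters thus had more fragments than the median shared region in wildtype, and control backgrounds of 5 in both libraries against a median of 2. Control backgrounds are in scaled units, where 1 ChIP fragment counts 0.741 in wildtype and 0.423 with Nkx2-1 deletion. They thus do not compare directly with fragment numbers or between the libraries.

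In wildtype the shared regions had medians close to those of the whole list, and with Nkx2-1 deletion medians above it. With Nkx2-1 deletion the regions in all 3 lists were above the whole list in fragments and q and below it in fold. In wildtype a shared summit rested on a median of 23.5 fragments (range 10 to 58), with an authors' fold enrichment of 5.77 and a −log10 q of 5.50, where the whole wildtype list had medians of 24, 5.8 and 5.64. With Nkx2-1 deletion the matching summit had a median of 49 fragments (19 to 140), a fold of 6.14 and a −log10 q of 8.61, where that whole list had 38, 5.73 and 5.97. Regions in all 3 lists had 67 fragments, a fold of 5.54 and a −log10 q of 9.05 there. The 17 wildtype summits of highest q held no shared region, and the leading 50 held 12 (24%), beside 38.0% of the whole wildtype list. In the Nkx2-1 deleted list 3 of the leading 10 and 15 of the leading 50 (30%) were summits of shared regions. Over that whole list such summits were 211 of 2589 (8.15%). They made up 5.52% of the Nkx2-1 deleted summits with −log10 q under 3 and 21.5% (16.9 to 26.7%) of those at 12 or more, and regions in all 3 lists went from 0.649% to 6.94% over the same bands. In wildtype the same bands gave 38.2% and 20% (8 of 40 summits, 9.05 to 35.6%). The wildtype bands between them were at 38.3%, 41.8% and 38.5%, so the share was lower only in the highest band. There 40.0% of wildtype summits were in all 3 lists.

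**Figure D1:**
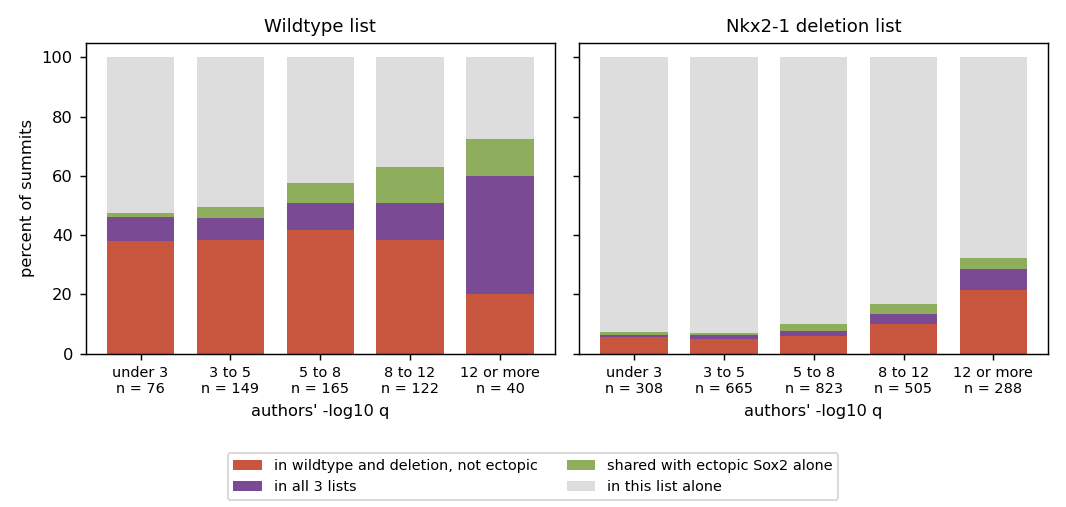
Percent of summits in each overlap class (colours) by band of the authors' −log10 q, in the wildtype list (left) and the Nkx2-1 deleted list (right), with the number of summits under each bar. Summits of regions in wildtype and Nkx2-1 deletion but not ectopic Sox2 go from 5.52% to 21.5% of the Nkx2-1 deleted list between the lowest and the highest band. In the wildtype list they are at 38.2 to 41.8% in the bands below 12 and at 20% in the highest.

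The overlap rule brings the summits of both lists close together. The wildtype and Nkx2-1 deleted summits lay a median of 25 bp apart (range 1 to 181), within 50 bp in 159 of 210 (75.7%) and within 100 bp in 201 (95.7%). In all 3 lists these shares were 81.0% and 96.8%. The overlap of the regions had a median of 218 bp and wildtype regions a median width of 246 bp.

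By wildtype q, the leading shared region lay at chromosome 11, 63744249 to 63744499, 99.99 kb from the predicted gene Gm29958, with 40 fragments in wildtype and 69 with Nkx2-1 deletion. The next lay 68.0 kb from Abca1, the cholesterol efflux transporter gene, at chromosome 4, 53227876 to 53228137, with 43 fragments (31.1 to 57.9) and 78 (61.7 to 97.3). A further one, 42.1 kb from Mpdz, which encodes a scaffold protein of tight junctions, had 52 fragments in wildtype and 57 with Nkx2-1 deletion. Scaled by depth, the Gm29958 and Abca1 regions had ratios of 1.14 (0.764 to 1.73) and 1.20 (0.819 to 1.79), and Mpdz one of 0.727 (0.491 to 1.08). None of these 3 intervals leaves out 1. Gm6958 followed with the highest wildtype fold among shared regions, 11.3, on 26 and 53 fragments. At 36.0 kb from Plk2, a polo-like kinase gene, there were 45 and 88 fragments. At 59.2 kb from Atp6v1g3, a subunit gene of the vacuolar proton pump, the 58 wildtype fragments were the most at any shared summit, beside 97 with Nkx2-1 deletion. The control backgrounds there were 7 and 8 in scaled units.

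The other leading wildtype regions lay within Cradd, Mcc, Cyp19a1, Pgs1, Efl1 and Kcnb2, 16.2 kb from Anxa1, and far from their nearest genes Btbd3 (157 kb) and Api5 (614 kb). Cradd encodes an adaptor of caspase signalling, Mcc an inhibitor of Wnt signalling and Cyp19a1 the aromatase that makes oestrogen. The Cyp19a1 summit, at chromosome 9, 54264924 to 54265151, had 32 fragments in wildtype and 59 with Nkx2-1 deletion. Of these 9, the ratio interval left out 1 for Anxa1 alone.

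By Nkx2-1 deleted q the order was different. The shared region within Sox5, a SoxD factor gene of cartilage and neural cells, at chromosome 6, 144021706 to 144021951, ranked 2 in the Nkx2-1 deleted list and 339 in wildtype, with 92 fragments (74.2 to 113) and 21 (13 to 32.1). The region 16.2 kb from Anxa1, the gene of annexin A1, at chromosome 19, 20406760 to 20406974, was high in both, ranking 5 and 40 on 140 and 49 fragments. Gm2016, a predicted gene, ranked 7 and 132 with 94 and 44 fragments. The region 85.5 kb from Id2, which encodes an inhibitor of basic helix-loop-helix factors and marks the distal lung tip in development, ranked 14 and 502 with 85 fragments (67.9 to 105) and 17 (9.90 to 27.2). Fragments with Nkx2-1 deletion at further leading regions were 81 within Prps1l3, 79 beside Lpp, 92 within Atxn10, 62 at 93.8 kb from Fat4 and 74 at 176 kb from Pcdh17. Wildtype had 32, 33, 37, 31 and 23 there, in the same order. Lpp encodes a LIM protein of focal adhesions, Fat4 a giant cadherin of planar polarity and Pcdh17 a protocadherin.

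**Figure D2:**
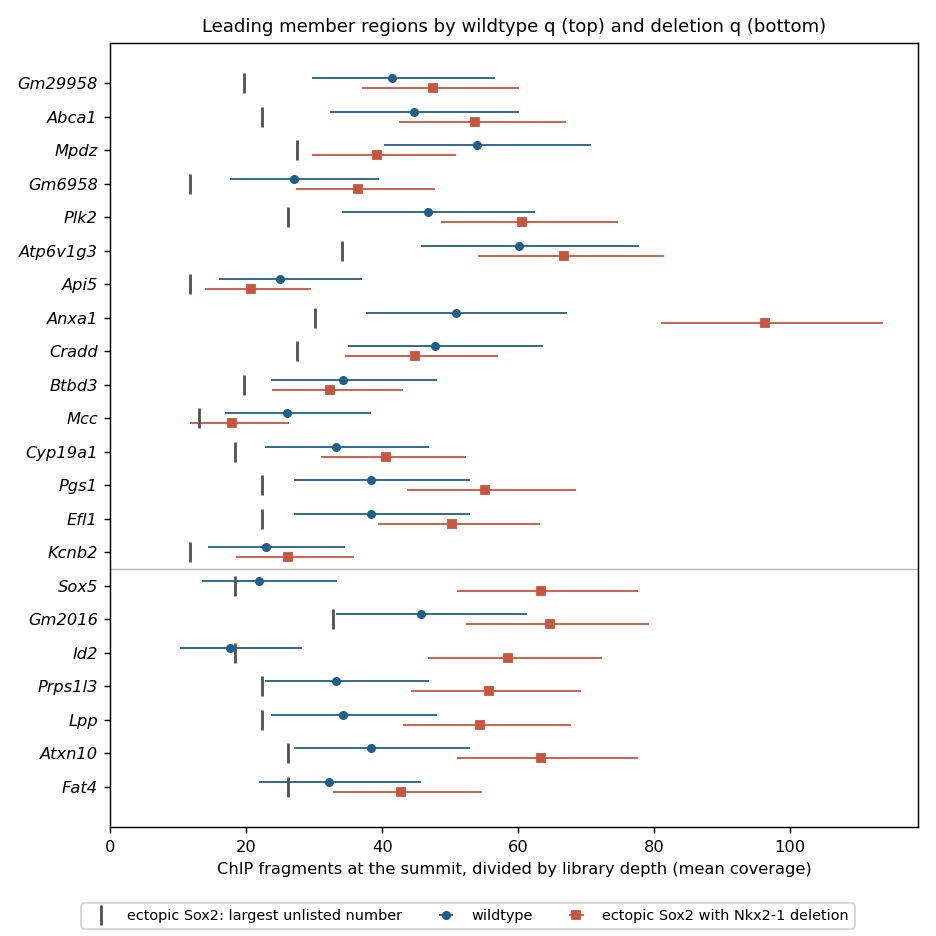
ChIP fragments divided by library depth at the 15 regions of highest wildtype q (above the line) and 7 further regions among the 8 of highest Nkx2-1 deleted q (below it), named by nearest protein-coding gene. Circles are wildtype and squares Nkx2-1 deletion, with exact 95% Poisson intervals, and ticks mark the largest number of fragments that would stay unlisted with ectopic Sox2. Intervals of wildtype and Nkx2-1 deletion are apart at Anxa1, Sox5 and Id2 and overlap in the other rows. Overlap of 2 single intervals is not the interval of their ratio. The ratio interval leaves out 1 also at Prps1l3 (1.10 to 2.61), Lpp (1.05 to 2.46) and Atxn10 (1.12 to 2.49).

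Over all shared regions the depth-scaled ratio of Nkx2-1 deletion to wildtype had a median of 1.4 and ran from 0.663 to 3.32. It was below 1 at 30 of 210 summits. A ratio of at least 2 was found at 32 (15.2%), where 12.8% of all 273 wildtype summits in both lists had one. Those 273 include the 210 shared summits. The rest of them, in all 3 lists, had such a ratio at 3 of 63 (4.76%, 0.993 to 13.3%). A ratio of 0.5 or less was found at 0 shared summits and at 1 of the 63 (1.59%), and at 0.366% of the 273. Because a summit had to pass in both lists, and not with ectopic Sox2, this spread is in part set by the choice of regions and nothing is read from it. The single intervals included 1 at 145 summits, lay above 1 at 65 (31.0%) and below 1 at 0. Over all wildtype summits in both lists, 30.8% lay above 1 and 1.1% below, and in all 3 lists 30.2% (19 of 63) and 4.76% (3 of 63).

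Among the highest ratios were those of Id2, 3.32 (1.95 to 5.96), the stronger of 2 regions within Sox6, 2.95 (1.90 to 4.75), Sox5, 2.91 (1.79 to 4.92), and Trp63, 2.90 (1.74 to 5.05). After the control background was subtracted they were 3.75, 2.88, 3.25 and 3.37. The Sox6 summits, 1.34 kb apart within this second SoxD gene on chromosome 7, had 111 and 95 fragments with Nkx2-1 deletion against 25 and 28 in wildtype. Their control background, in scaled units, was 6 at both with Nkx2-1 deletion and 2 and 3 in wildtype. At the other end stood Twsg1, which encodes a Bmp-binding protein, with 20 fragments in each library and a ratio of 0.663 (0.339 to 1.30), then a region within the alpha-catenin gene Ctnna2, Mcc, the nuclear envelope gene Sun1 and Mpdz, up to 0.727. All 5 of these intervals included 1.

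**Figure D3:**
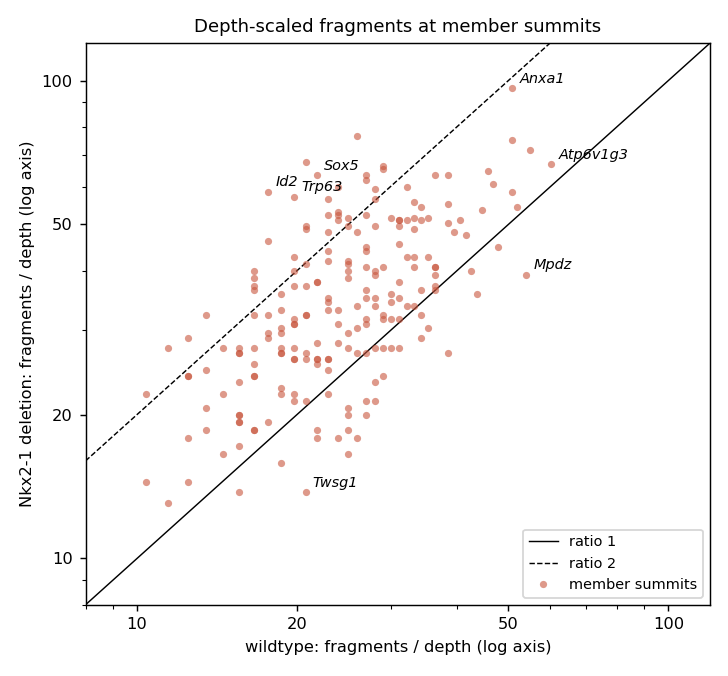
Fragments divided by depth at the 210 shared summits, wildtype on the horizontal and Nkx2-1 deletion on the vertical axis, both logarithmic, with lines at ratios of 1 and 2. Points lie from 0.663 (Twsg1) to 3.32 (Id2), with 32 on or above the broken line and 30 below the solid one.

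What absence from the ectopic Sox2 list means in fragments was worked out for each region. The largest number of fragments that would have stayed below the lowest −log10 p listed there, 5.47, was computed at the wildtype control background scaled to the ectopic Sox2 control. It had a median of 14 (9 to 40). At the 101 wildtype summits that do overlap an ectopic Sox2 region, the listed fragments exceeded this number in 87 and did not in 14, where it was too high. Those summits are listed, so they cannot show where the number is too low, and the limits below were not checked in that direction. Wildtype fragments scaled to the depth of the ectopic Sox2 library would have reached the lowest listed value at 182 of 210 shared summits (86.7%), beside 87.1% of all wildtype summits, and 85.1% of those in wildtype alone. This count rests on the control background and on the fragment number taken: it was 104 with the wildtype control left unscaled and 33 from the lower Poisson limit of the fragments. Which control the authors used is not stated. Set against wildtype, the largest unlisted number allows a ratio of ectopic Sox2 to wildtype of up to a median of 0.788. Its interval stayed below 1 at 8 of the 210, where 7.43% of all wildtype summits did. By class these were 16 of the 63 in all 3 lists (25.4%), 5 of the 38 shared with ectopic Sox2 alone (13.2%) and 12 of the 241 in wildtype alone (4.98%), so 21 of the 41 such summits do have a listed ectopic Sox2 region. Such an interval is thus nothing particular to the shared regions. At the others a lower level with ectopic Sox2 was not detectable at this depth.

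The 8 were the regions nearest to Gm29958, Abca1, Mpdz, Gm6958, Plk2, Atp6v1g3, Anxa1 and Cradd, all among the leading wildtype summits. At Gm6958 at most 9 ectopic Sox2 fragments would have stayed unlisted against 26 in wildtype, a ratio of at most 0.437 (upper interval bound 0.961). At Mpdz the numbers were 21 against 52, a ratio of at most 0.509 (0.860), and at Anxa1 23 against 49, at most 0.592 (0.990). Measured from the Nkx2-1 deleted fragments as well, 6 of the 8 kept an upper bound below 1, the exceptions being Gm29958 and Mpdz. Such a bound was not particular to the 8, with 0.632 at Lpp and 0.812 at Rb1 outside them. Over all shared regions the median limit was 0.626 against Nkx2-1 deletion and 0.788 against wildtype. The rule used both lists, so the 6 are no separate support. For limits against Nkx2-1 deletion the largest unlisted number was computed anew, at the Nkx2-1 deleted control background scaled to the ectopic Sox2 control. It was 25 at Gm29958 and 31 at Mpdz, where the wildtype control gave 15 and 21. At Id2 the ratio of ectopic Sox2 to wildtype was at most 1.04 (upper interval bound 2.24) and that to Nkx2-1 deletion at most 0.313 (0.555). At Trp63 these were 1.13 (2.29) and 0.412 (0.692). Limits against wildtype take the scaled wildtype control background to hold in the ectopic Sox2 cells. Limits against Nkx2-1 deletion take the scaled Nkx2-1 deleted one.

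**Figure D4:**
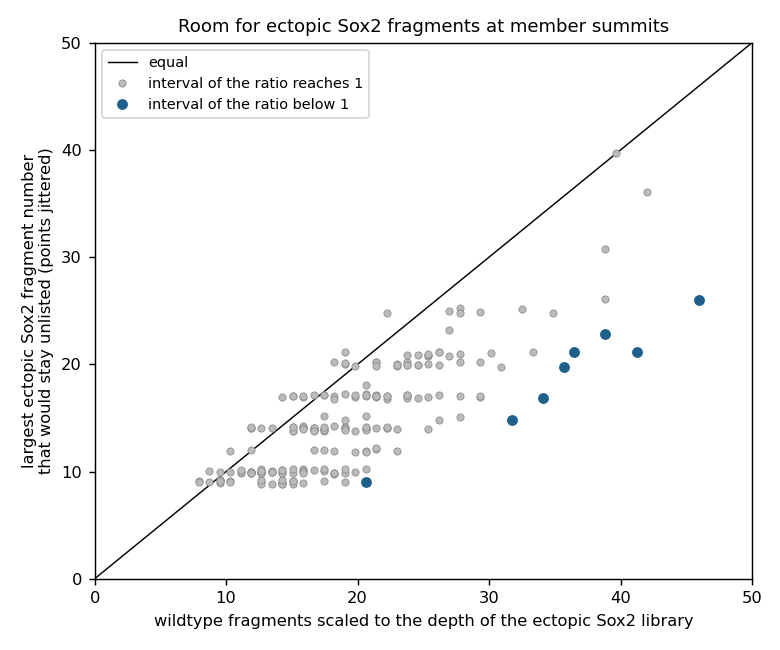
For each shared summit, wildtype fragments scaled to the depth of the ectopic Sox2 library (horizontal) and the largest number of ectopic Sox2 fragments that would stay unlisted (vertical, jittered), with a line at equality. Most points lie below the line but close to it, and the 8 dark points are those whose interval of the ratio stays below 1.

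The control background, the local level the authors' caller set against the ChIP, was at least 5 in the scaled units of wildtype at 28 of 210 shared summits (13.3%, 9.05 to 18.7%). It was that high at 31 of the 63 wildtype summits in all 3 lists (49.2%, 36.4 to 62.1%), at 13 of the 38 shared with ectopic Sox2 alone (34.2%) and at 21 of the 241 in wildtype alone (8.71%). The highest was 14, in wildtype at a region within Psd3 with 50 fragments, a fold of 2.54 and 79 fragments with Nkx2-1 deletion. Without regions of at least 5 the median ratio was 1.44. What part this background has in the overlaps was not tested.

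Of the shared summits, 103 of 210 lay inside a protein-coding gene (49.0%, 42.1 to 56.0%), 46 outside but within 50 kb (21.9%) and 61 farther away (29.0%). In wildtype alone the shares were 45.6%, 24.9% and 29.5%, and in the whole Nkx2-1 deleted list 47.9%, 29.3% and 22.9%. Within 1 kb of either end of a gene lay 4 shared summits (1.90%, 0.521 to 4.8%), those of Dph1, Mrps10, Lpp and Trhr, the gene of the thyrotropin-releasing hormone receptor. The share was 4.15% (2.01 to 7.50%) in wildtype alone, 3.48% in the Nkx2-1 deleted list, 14.4% (10.1 to 19.6%) in the ectopic Sox2 list and 15.8% (6.02 to 31.3%) among wildtype summits shared with ectopic Sox2 alone. The Lpp summit lay 596 bp before the gene at chromosome 16, 24392603 to 24392805, within the antisense transcript Lppos, with 33 fragments in wildtype (22.7 to 46.3) and 79 with Nkx2-1 deletion (62.5 to 98.5). Genes that held a shared summit were long, with a median span of 143 kb against 17.2 kb for all protein-coding genes, as were those with a summit in wildtype alone, with 207 kb. A longer gene offers more positions for a summit, so a difference from all genes was built in and nothing is read from it. Among the longest genes that held a shared summit were Naaladl2, Tenm3, Ctnna2, Rbms3 and Sox5. Another 11 summits were more than 500 kb from any protein-coding gene.

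**Figure D5:**
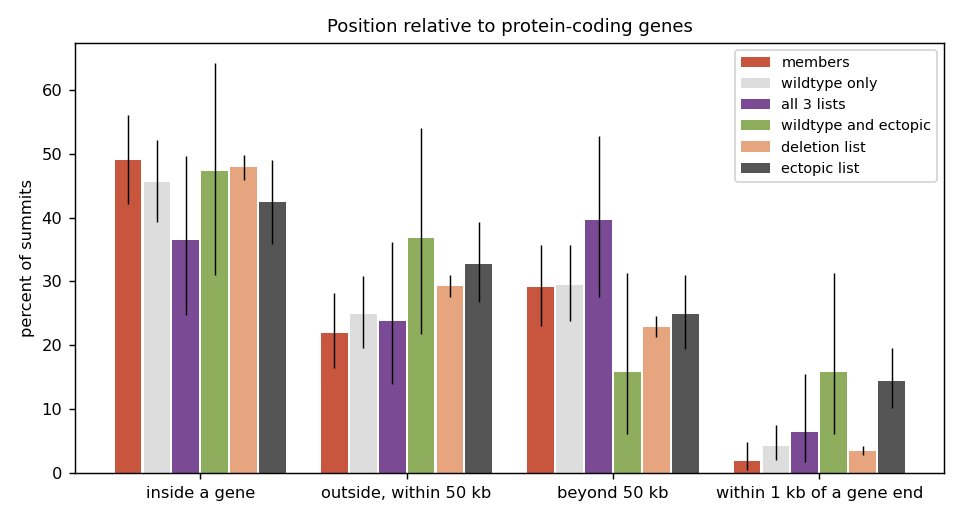
Percent of summits by position relative to protein-coding genes, for the 210 shared summits, the other wildtype classes, and the whole Nkx2-1 deleted and ectopic Sox2 lists, with exact 95% binomial intervals; the last group of bars overlaps the first 3. Shared summits are at 49.0% inside genes and at 1.90% within 1 kb of a gene end, where the ectopic Sox2 list is at 14.4%.

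Several genes had more than 1 shared region nearby, and these were read as neighbours and not as separate evidence. Lrig1, which encodes a restraint on Egf receptors and marks epithelial stem cells, was nearest to 3, of which 2 lay within the gene with 22 and 19 fragments in wildtype and 82 and 62 with Nkx2-1 deletion. The remaining region lay 181 kb away, with 35 and 59. At Anxa1 the second region lay 19.8 kb from the first, with 33 fragments in wildtype and 53 with Nkx2-1 deletion, a ratio of 1.07 (0.677 to 1.70) beside 1.90 (1.36 to 2.68) at the first. The region within Aldh1a7, an aldehyde dehydrogenase gene, lay 296 kb further on, with 20 and 47 fragments. Trhr and Abcc4, a transporter gene for cyclic nucleotides, held 2 regions each, at 33.5 and 46.3 kb from each other. In all, 12 of the 197 nearest genes had more than 1 shared summit, and those of Tcf4 and of Fsip1 were 2 summits of 1 region each. At Perp, Adamts16 and Slc18a1 the wildtype region overlapped 2 summits of the Nkx2-1 deleted list.

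Over the whole wildtype list 210 of 552 summits were shared (38.0%). Chromosome 19 had 9 of 15, chromosome 6 had 18 of 32 and chromosome 12 had 16 of 29. Chromosome 15 had 14 of 27 and chromosome 8 had 13 of 26. The lowest shares were 10 of 40 on chromosome 3, 8 of 32 on chromosome 5 and 8 of 29 on chromosome 1. Counts per chromosome are small, their spread was not tested, and nothing is read from it. Both Anxa1 regions, Aldh1a7 and Jak2 lie on chromosome 19. At the last of these the control background was 11 in wildtype and 12 with Nkx2-1 deletion, in scaled units. Without chromosome 19 the median ratio over shared regions stayed at 1.4.

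Genes of 20 lists were set beside the shared summits. Of the 360 different genes on the lists, 12 had a shared summit inside or within 50 kb, where 1.11% of all protein-coding genes did and 2.85% had any wildtype summit. The lists were chosen with earlier results of these data known, and several also had genes near wildtype summits of other classes. Nothing is thus read from a difference between list genes and all genes. The counts of single lists were 0, 1 or 2 and were not tested. Of the 25 basal, squamous and oesophageal genes, 4 were near any wildtype summit, 18 near any Nkx2-1 deleted summit and 3 near any ectopic Sox2 summit. Near a shared summit were 2 of the 25. One is Trp63, the master factor of basal cells, with a summit within the gene at chromosome 16, 25780127 to 25780326, of 19 fragments in wildtype and 83 with Nkx2-1 deletion. It is near the bottom of the wildtype list, at rank 518 and −log10 q of 2.09, and at rank 41 and 19.9 with Nkx2-1 deletion. The other is Perp, a desmosome protein gene that p63 activates, 19.2 kb from a summit of 15 and 34 fragments that is near the bottom of both lists, at −log10 q of 2.23 and 1.38. Among 14 alveolar type 1 genes there was 1, Clic5, a chloride channel gene, with 18 and 52 fragments 47.4 kb away and a ratio of 1.92 (1.10 to 3.48). The Sox family of 19 had Sox5 and Sox6.

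The Wnt list had 2 of 29. Near the receptor gene Fzd4 the summit had 19 fragments in wildtype and 38 with Nkx2-1 deletion, and 3.22 kb from the effector gene Tcf7 it had 16 and 27. Both ratio intervals included 1, at 1.33 (0.746 to 2.44) and 1.12 (0.582 to 2.22). The cell cycle and Myc list had 1 of 22, the region within Rb1, which encodes the retinoblastoma brake on the cell cycle, at chromosome 14, 73253529 to 73253734. It had 49 fragments in wildtype and 109 with Nkx2-1 deletion, folds of 3.73 and 5.24, and a ratio of 1.48 (1.04 to 2.11). Its control backgrounds were 9 and 8 in scaled units. Among 17 Klf factors Klf6 had a summit 16.7 kb away with 18 and 23 fragments, a ratio of 0.848 (0.438 to 1.67). The pluripotency list had Zfp42 of 16 genes, with 20 and 47 fragments, the annexins Anxa1 of 12, and the housekeeping list Tbp of 20, with 24 and 58.

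The other lists had 0 members near a shared summit, namely alveolar type 2 (18 genes), airway secretory and ciliated (18), endoderm and lung transcription factors (26), gastric and intestinal (18), Notch pathway (18), Fgf, Bmp and Hedgehog pathways (30), Hippo pathway (19), neural Sox2 programme (17), immune (12), endothelium (12) and mesenchyme (14). Some of these did have a gene near a wildtype summit of another class, with 3 of the gastric and intestinal list, 3 of the Hippo list, 2 of the endoderm list and 1 each of the airway, Notch, immune and endothelium lists.

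A few nearest genes outside the lists were picked by name after their values were seen, so they show nothing about the shared regions as a set. On the basal and airway lists, 2 of 25 and 0 of 18 genes were near a shared summit. The serine protease genes Tmprss11d and Tmprss11e, on chromosome 5, had 12 and 34 fragments in wildtype and 42 and 62 with Nkx2-1 deletion. The Tmprss11d summit lay 2.34 kb from the gene, with a ratio of 2.32 (1.20 to 4.85). Calml3, a calmodulin-like gene of squamous epithelia, had 35 and 57 fragments 22.9 kb away, and Cftr, the chloride channel gene of airway epithelium, 30 and 72 within the gene. Adh7, an alcohol dehydrogenase gene of the upper digestive tract, had 13 and 36 within the gene. The adhesion molecule genes Alcam and Cd24a held summits of 28 and 31 fragments in wildtype and of 96 and 74 with Nkx2-1 deletion.

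Close to the rule's limits, the shared regions with the least overlap lay 80.5 kb from Cdh6, within Nedd9 and 8.36 kb from Macc1, at 51, 67 and 97 bp. They had 14, 13 and 21 fragments in wildtype and 24, 30 and 26 with Nkx2-1 deletion. The wildtype summits just outside, within Cdk19, 12.3 kb from Dsg3 and within Adh7, missed an Nkx2-1 deleted region by 387, 407 and 409 bp and had 26, 26 and 18 fragments. Adh7 thus has 1 region on each side of the limit. Towards the ectopic Sox2 list, the closest shared regions, near Macc1 and within Exoc6b and Rbms3, lay 4.6, 9.89 and 14.2 kb from an ectopic Sox2 region. The least overlaps that kept a summit out were 59, 134 and 137 bp, at 8.50 kb from Dthd1, at 369 kb from Adamts16 and within Trim2.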

How the data were processed

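Single 50 bp reads were sequenced per the labels' protocols. The submitters' processing notes name Bowtie2 2.2.9, SAMtools 1.4, MACS2 2.1.1, HOMER 4.8.3 and build mm10. The 3 Sox2 lists were deposited per library, not pooled. No label states which control was used, the threshold, or whether duplicates were removed. For each summit the authors deposited a score (10 times −log10 q), the fold over control, −log10 p and −log10 q. Input and IgG libraries were not used.

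Fragments and control background were solved from the authors' fold (pseudocount 1) and −log10 p as a Poisson tail, as whole fragments times 1 scale per library within a tolerance of 0.02. All summits gave whole fragments, and 1 of the Nkx2-1 deleted list several solutions. The control background was required to be the genome-wide level or a multiple of 0.02. On simulated summits (552 wildtype, 229 ectopic Sox2, 600 Nkx2-1 deletion) 100% of fragments were recovered. The simulation used the same formulas and background steps, so it checks the solving and not whether the deposited values follow this model. The control background is in scaled units, as fragments times that scale, and is not a fragment count. Depth is the genome-wide background over that scale, not a read total. Ratios between libraries were divided by the depth ratio, with exact conditional binomial intervals and no background subtracted, using the matching Nkx2-1 deleted summit with most fragments. Overlaps were counted with bedtools 2.31.1, the rest with Python 3.11.15 and SciPy 1.17.1. Positions are printed counting from 1.

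Nearest genes are the closest of 21887 protein-coding spans of RefSeq GRCm38.p6, the shortest where spans nest. Named genes are those nearest to the 15 shared summits of highest wildtype q, the 10 of highest Nkx2-1 deleted q, the 5 highest and 5 lowest ratios, regions with more than 1 summit in both lists (0 found), the 3 on each side of the overlap limit, and list genes within 50 kb. Other genes, at promoters, in long genes, with several regions, high control background or an epithelial role, were chosen after their values were seen. Some genes that the rule names are not reported here. Regions and lists were chosen with earlier results of these data known. All 376 list entries matched a gene. Motif shares at summits were planned but no genome sequence was used here. Alternatives covered the overlap, the q threshold, the gene window, the background and the summit used.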

Additional observations from a re-analysis of the deposited data

How the results depend on the processing

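The number of shared summits was 193 to 211 under the other overlap rules, with regions or Nkx2-1 deleted summits counted, and with no ectopic Sox2 region within 1 kb. It was 162 with Nkx2-1 deleted summits of −log10 q of at least 5 and 124 with wildtype summits of at least 5. The median ratio of Nkx2-1 deletion to wildtype was 1.31 to 1.44 under 6 alternatives and 1.51 with Nkx2-1 deleted −log10 q of at least 5, which keeps higher Nkx2-1 deleted summits by construction. The count of summits whose scaled wildtype fragments would be listed with ectopic Sox2, 182, was 207 by fold and 194 from Nkx2-1 deleted fragments. It was 104 with the wildtype control background left unscaled, 33 from the lower Poisson limit of the fragments and 23 against the median listed −log10 p. The share within 1 kb of a gene end, 1.90%, was 11.9% within 5 kb. List genes near a shared summit, 12, were 14 within 100 kb, 15 by nearest gene, 6 within 10 kb and 6 with wildtype −log10 q of at least 5. For the ratio, the alternatives on Nkx2-1 deleted q and on control background, and for the listed count those on Nkx2-1 deleted fragments, unscaled control and Poisson limit, were chosen after seeing the data. Motif shares were not run. No paired analysis was possible because each condition has 1 library. Depth also limits absence, since a region missing from the ectopic Sox2 list may hold up to a median of 14 fragments.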
